A study of Mus musculus with 20 samples.

Results

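The sliding clamp, its loader and the enzymes that finish Okazaki fragments were followed through 10 genes chosen by symbol: Pcna, Rfc1, Rfc2, Rfc3, Rfc4, Rfc5, Fen1, Lig1, Dna2 and Rnaseh2a. All 10 of 10 were present in both count tables, among the 13107 genes of the Myc experiment and the 11210 genes measured with HU. RNA-seq was done in p19/Nras cells, a murine liver cancer line in which Trim33 was targeted by CRISPR. All groups share the p19/Arf-null, Nras-driven background.

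In the Myc experiment, 12 libraries formed 6 groups of 2. Trim33-WT cells (sgCtrl) and 2 Trim33-KO lines, KO1 and KO2 (both sgTrim33), carried either the pWZL vector (Ctrl) or Myc, with no drug. In the HU experiment, 8 libraries formed 4 groups of 2. Trim33-WT (sgCtrl) and Trim33-KO (sgTrim33) cells received vehicle or 1 mM hydroxyurea (HU, an inhibitor of ribonucleotide reductase that depletes nucleotides) for 4 h. The labels do not say which knockout line was used there, nor whether the 2 libraries of a group came from separate cultures, so p-values measure only the spread between these libraries, which may be technical. Totals were 14753177 to 17949430 counts per library in the Myc experiment but 2315327 to 3082202 in the shallower HU experiment, so small changes are less certain in the latter.

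The clamp is a ring that encircles DNA and tethers polymerases and other enzymes to the replication fork. A loader of large and small subunits opens the ring with ATP and places it at a primer end. On the lagging strand, each Okazaki fragment starts with an RNA primer, which RNase H2 and flap nucleases help to remove, and DNA ligase I then seals the nick. Hydroxyurea stalls forks, and Myc is a transcription factor that drives growth and replication.

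Trim33 was read first, as a check of the labels. It stood at 246 and 258 CPM (counts scaled to library size, TMM-normalized, the scale used below) in WT Ctrl, against 123 and 130.4 in KO1 Ctrl and, in KO2 Ctrl, 201 and 207, so both knockout lines were below WT Ctrl, KO2 by less than KO1. With the Myc vector its order did not follow the labels. It stood at 131 and 155 CPM in the libraries labelled WT Myc, against 185 and 193 for the label KO1 Myc and 124 and 125 for KO2 Myc. KO2 Ctrl kept much of its Trim33 RNA and no protein was measured here, so this RNA alone cannot assign a library to WT or KO. Directions involving these 6 libraries therefore rest on the labels. In the HU experiment, WT libraries held 139.7 and 125 CPM without and 142 and 139 with HU, against 50.8 and 43.8 and 50.9 and 52.2 in the KO, with no overlap. Of 12 hepatocyte markers, none was in the Myc table and 1 (Apob, at 0 to 14 counts) in the HU table. Of 4 cholangiocyte markers, 2 (Krt19 and Sox9) were in both, and no endothelial marker was in either. The 4 fibroblast and stellate markers in the Myc table summed to 711 to 791 CPM in KO1 Ctrl and 714 to 729 CPM in the libraries labelled KO2 Myc, against 103 to 222 CPM in the other 4 groups. These sums hide opposite moves: in KO2 Ctrl against WT Ctrl, Col3a1 and Pdgfrb had log2FC 2.82 and 2.62, and Col1a2 and Col1a1 had -3.03 and -0.34. By Trim33 and by these markers, the libraries labelled KO2 Myc lay nearer to KO1 Ctrl than to KO2 Ctrl, and those labelled KO1 Myc nearer to KO2 Ctrl than to KO1 Ctrl. The 2 cholangiocyte markers summed to 176 to 182 CPM for the label KO1 Myc and 78.3 to 82.5 CPM for KO2 Myc. They summed to 102 to 108 CPM in KO1 Ctrl and 163 to 169 CPM in KO2 Ctrl. Whether labels were exchanged was not tested, and no library was moved to another group. Of 6 fibroblast and stellate markers, 3 were in the counts of the HU experiment and summed to 57.5 to 64.7 CPM in WT and 8.02 to 13.8 CPM in KO. Of 6 immune markers, Cd68 alone was present in both, at 0.790 to 6.30 CPM.

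Promoters were read to see which regulatory words the genes share. The RefSeq set (GRCm38.p6, from 250 bases before to 50 after a start site) holds 12 promoters for 9 of the 10 genes, not for Rfc2. They were searched on both strands for E2F words (TTTCCCGC, TTTGGCGC, TTTCGCGC and TTTGCCGC), the CHR word TTTGAA and CCAAT, whose reverse is ATTGG. An E2F word stood in the promoters of 2 genes, Rfc3 and Lig1, where 2.6% of all genes with a promoter had one. CCAAT stood in 4 (Pcna, Rfc1, Rfc3 and Rnaseh2a; 41.1% of all genes) and TTTGAA in Fen1 alone (20.2%). The windows below, from 100 bases before to 20 after the start site on the minus strand, are given at mm9 positions, where each promoter matched once. Pcna is shown as the clamp gene, Rfc3 as the loader gene with E2F words and Rnaseh2a as the gene that fell in knockout cells. Capitals mark the searched words.
Pcna, chr2:132078897-132079016: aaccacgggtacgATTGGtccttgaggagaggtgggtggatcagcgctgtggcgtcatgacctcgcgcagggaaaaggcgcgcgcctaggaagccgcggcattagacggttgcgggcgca
Rfc3, chr5:152453764-152453883: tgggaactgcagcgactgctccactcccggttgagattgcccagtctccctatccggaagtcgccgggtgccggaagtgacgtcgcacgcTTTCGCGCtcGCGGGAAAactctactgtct
Rnaseh2a, chr8:87489956-87490075: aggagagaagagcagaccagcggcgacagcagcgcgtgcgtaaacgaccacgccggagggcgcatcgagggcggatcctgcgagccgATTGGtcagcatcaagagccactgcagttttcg
In Rfc3, both E2F words lie at the start site itself, TTTCGCGC before it and TTTCCCGC, read on the other strand, after it. A match is only a match of letters, and no binding was measured here.

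Which genes changed when Trim33 was lost was asked first in cells with the Ctrl vector. Against WT Ctrl, 7 of the 10 genes rose and 1 fell in KO1 (edgeR's quasi-likelihood test, adjusted p below 0.01), where 52.2% of all genes were called (25.5% higher, 26.7% lower). In KO2, 8 rose and 1 fell, against 49.9% of all genes called (23.3% higher, 26.6% lower). The median log2FC of the genes was 0.77 in KO1 and 0.88 in KO2, against -0.0036 and -0.011 over all genes. Both comparisons share the WT Ctrl libraries. In bulk RNA, more cells in S phase and more RNA per cell cannot be told apart. In separate assays, by growth curve and flow cytometry, the paper reports no effect of the knockout on growth or cell cycle profile without stress. The cell cycle was not measured in these libraries. Of 12 proliferation genes, 11 rose in KO1 (median 0.57) and 12 in KO2 (median 0.82), and the 2 cholangiocyte markers summed to 596 to 603 CPM in WT Ctrl against 102 to 108 CPM in KO1 Ctrl and 163 to 169 CPM in KO2 Ctrl. The part of the cholangiocyte markers, of the fibroblast markers and of proliferation in the results was not tested.

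**Figure D1:**
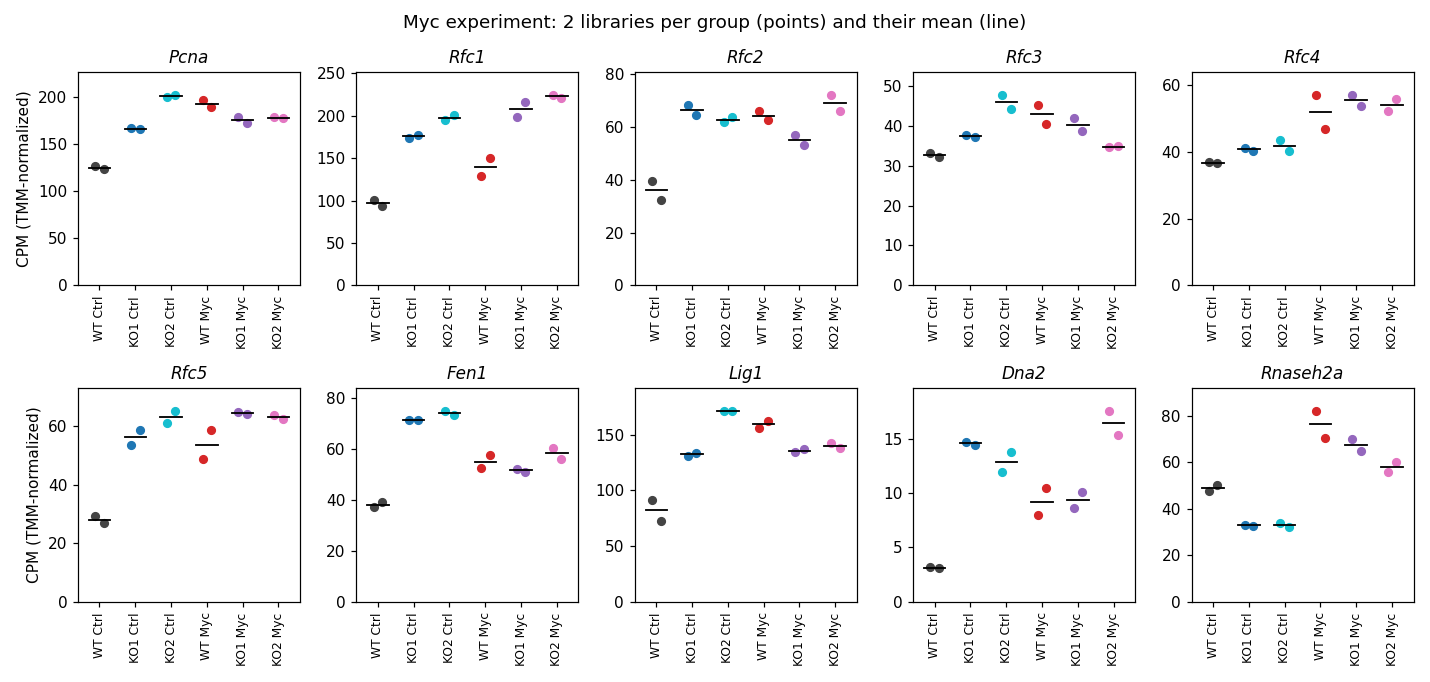
CPM of the 10 genes in the Myc experiment. Points are single libraries, 2 per group, and lines are group means. For 9 genes both WT Ctrl libraries lie below all other libraries, and Rnaseh2a is lower in KO1 Ctrl and KO2 Ctrl than in WT Ctrl.

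Pcna, which encodes the clamp subunit (mm9 chr2:132074898-132079050, minus strand), held 126 and 123 CPM in WT Ctrl, against 167 and 166 in KO1 Ctrl and, in KO2 Ctrl, 200.2 and 202. The 3 groups did not overlap, and KO2 stood highest. Its log2FC was 0.41 (SE 0.05, adjusted p = 3.42e-06) in KO1 and 0.69 (SE 0.05, adjusted p = 1.05e-08) in KO2 by edgeR, and KO2 exceeded KO1 by 0.28 (SE 0.05, adjusted p = 0.000601). Pcna has 2 annotated pseudogenes, so its counts could be shared with near-identical copies.

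The loader genes did not move by one size. Rfc1, the large subunit (chr5:65653091-65726909), held 100.2 and 94.0 CPM in WT Ctrl, against 174 and 177 in KO1 Ctrl and, in KO2 Ctrl, 195 and 201. It rose by 0.86 (SE 0.07, adjusted p = 2.57e-08) in KO1 and 1.03 (SE 0.07, adjusted p = 3.62e-09) in KO2. Rfc5 (chr5:117828112-117839056), a small subunit, held 29.3 and 26.8 CPM in WT Ctrl, against 53.8 and 58.9 in KO1 Ctrl and, in KO2 Ctrl, 61.3 and 65.3, with fold changes of 2.01 and 2.26 and log2FC 1.01 (SE 0.09, adjusted p = 7.33e-08) and 1.18 (SE 0.09, adjusted p = 1.28e-08). Rfc2 (chr5:135058560-135074198) held 39.6 and 32.4 CPM in WT Ctrl, against 68.3 and 64.3 in KO1 Ctrl and, in KO2 Ctrl, 62.0 and 63.6, and rose by 0.88 and 0.80 on the log2 scale. Rfc3 (chr5:152445331-152453817) held 33.1 and 32.3 CPM in WT Ctrl, against 37.7 and 37.1 in KO1 Ctrl and, in KO2 Ctrl, 47.8 and 44.2. It was called in KO2 (log2FC 0.49, SE 0.08, adjusted p = 4.86e-05) but not in KO1 (log2FC 0.19, SE 0.08, adjusted p = 0.0457). Rfc4 (chr16:23114016-23127810) held 36.9 and 36.7 CPM in WT Ctrl, against 41.2 and 40.4 in KO1 Ctrl and, in KO2 Ctrl, 43.4 and 40.3. Its log2FC was 0.15 (SE 0.09, adjusted p = 0.165) in KO1 and 0.19 (SE 0.09, adjusted p = 0.083) in KO2, called in neither, so with Rfc3 it was the least moved of the 5 loader genes. In both lines the WT Ctrl libraries still lay below the KO libraries for Rfc3 and Rfc4.

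Fen1, the flap endonuclease (chr19:10273622-10278659), held 37.0 and 39.0 CPM in WT Ctrl, against 71.4 and 71.4 in KO1 Ctrl and, in KO2 Ctrl, 74.8 and 73.1. The KO libraries stood apart from WT Ctrl, with log2FC 0.91 (SE 0.07, adjusted p = 1.26e-08) and 0.96 (SE 0.07, adjusted p = 8.09e-09). Lig1, DNA ligase I (chr7:13862632-13896782), held 91.2 and 72.7 CPM in WT Ctrl, against 131 and 134 in KO1 Ctrl and, in KO2 Ctrl, 171 and 171. Its WT Ctrl libraries differed from each other more than the KO libraries did, yet no group overlapped. The log2FC of Lig1 was 0.69 (SE 0.08, adjusted p = 9.88e-07) and 1.06 (SE 0.08, adjusted p = 7.16e-09), and KO2 exceeded KO1 by 0.37 (SE 0.07, adjusted p = 0.00125).

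Dna2, a nuclease and helicase that trims long flaps (chr10:62409774-62436933), was the scarcest per coding length and had the largest log2FC of the 10 in both lines. It held 3.18 and 3.08 CPM in WT Ctrl, against 14.7 and 14.5 in KO1 Ctrl and, in KO2 Ctrl, 12 and 13.8, a log2FC of 2.22 (SE 0.17, adjusted p = 1.24e-08) and 2.04 (SE 0.18, adjusted p = 5.11e-08). Its lowest library had 45 counts. Rnaseh2a, the catalytic subunit of RNase H2 (chr8:87480509-87493666), was the one gene that fell. It held 47.5 and 50.2 CPM in WT Ctrl, against 32.9 and 32.7 in KO1 Ctrl and, in KO2 Ctrl, 33.8 and 32.0, log2FC -0.58 (SE 0.09, adjusted p = 2.27e-05) and -0.57 (SE 0.09, adjusted p = 2.76e-05). Its partner subunits moved the other way: Rnaseh2b had log2FC 0.41 and 0.68, and Rnaseh2c 0.57 and 0.67, all called as higher. Rnaseh2a, Fen1, Lig1, Rfc4 and Rfc5 overlap a gene on the other strand, and counting was not stated to use strand.

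Between the lines, 3 of the 10 genes were higher in KO2 Ctrl than in KO1 Ctrl (Pcna, Lig1 and Rfc3) and none lower, where 18.3% of all genes were called. Rfc3 differed by 0.30 (SE 0.08, adjusted p = 0.00791). This count was 1 without KO1 Ctrl replicate 1 or KO2 Ctrl replicate 1 and 0 without KO1 Ctrl replicate 2 or KO2 Ctrl replicate 2. Of 22 further clamp and fragment genes, 13 rose and 2 fell in KO1, where 25.5% of all genes were higher and 26.7% lower, and 14 rose and 2 fell in KO2, where 23.3% were higher and 26.6% lower. Pclaf, a PCNA-binding factor, had the largest rise, at 1.17 and 1.41, and Rad17, which loads the checkpoint clamp, fell by 0.53 and 0.36 on the log2 scale. Of 18 other replication genes, 12 rose in each line, with 3 falling in KO1 and 2 in KO2.

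Levels between genes were compared as CPM per kilobase of coding sequence. In WT Ctrl, Pcna was highest at 159 ± 2.64 (SD, n = 2), Rnaseh2a next at 53.9 ± 2.16, then Rfc2, Fen1, Rfc4, Rfc3, Lig1, Rfc1 and Rfc5 between 27.5 and 34.3, and Dna2 lowest at 0.981 ± 0.0229. Per kilobase of transcript, which includes the untranslated parts, Pcna (82.3), Rnaseh2a (31.9) and Dna2 (0.759) kept these places, but the 7 genes between spread from 10.0 (Rfc5) and 18.1 (Fen1) to 28.8 (Rfc4), so their order depends on the length used. Among those 7 genes, per coding length, the libraries of each neighbouring pair overlapped, except that both Rfc4 libraries lay above those of Rfc3. In WT vehicle of the HU experiment, Pcna was again highest at 299 ± 40.1 and Dna2 lowest at 8.57 ± 0.719, with Fen1 second at 111 ± 18.5. The experiments were sequenced and fitted apart, so these levels stand side by side without a test.

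The libraries labelled WT Myc were compared with WT Ctrl next, although Trim33 in the former lay nearer to KO1 Ctrl than to WT Ctrl. Against WT Ctrl, all 10 genes were higher in the libraries labelled WT Myc, with 44.3% of all genes called (21.6% higher, 22.7% lower). The median log2FC was 0.63, against 0.0069 over all genes. Pcna held 197 and 189 CPM and rose by 0.63 (SE 0.05, adjusted p = 5.81e-08). Dna2 held 7.94 and 10.5 CPM and rose by 1.56 (SE 0.19, adjusted p = 3.06e-06), again the largest. Lig1 rose by 0.96, Rfc5 by 0.94, Rfc2 by 0.84, Rfc1 by 0.53, Fen1 by 0.53, Rfc4 by 0.50 and Rfc3 by 0.39. Rnaseh2a also rose, to 82.0 and 70.5 CPM, by 0.64 (SE 0.08, adjusted p = 5.42e-06). In no case did the WT Myc and WT Ctrl libraries overlap. The 2 libraries labelled WT Myc differed more from each other than those of any other group of this experiment. Their chi-square per gene was 10.8, against 2.17 to 4.45. All groups share 1 estimate of the spread, so p-values with WT Myc may be too small. With only WT Myc and WT Ctrl fitted, 4401 rather than 5807 of all genes were called, and all 10 genes kept their calls. Of the 22 further genes, 15 rose and 1 fell, and of 12 proliferation genes 9 rose. Both cholangiocyte markers fell, Sox9 by 1.37 and Krt19 by 0.48 on the log2 scale, and summed to 325 to 408 CPM in the libraries labelled WT Myc against 596 to 603 CPM in WT Ctrl. Of 4 fibroblast markers, Col3a1 rose by 2.44 and Pdgfrb by 1.297, Col1a1 fell by 0.56 and Col1a2 was not called. The part of these markers in the result was not tested.

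In KO cells the genes moved in both directions with the same vector, with medians of 0.093 in KO1 and 0.070 in KO2 against 0.0066 and 0.017 over all genes. Between the libraries labelled KO1 Myc and KO1 Ctrl, 3 of the 10 genes were higher and 2 lower, with 36.1% of all genes called. Rnaseh2a rose most, with log2FC 1.04 (SE 0.08, adjusted p = 4.65e-08), Rfc4 had 0.45 (SE 0.09, adjusted p = 0.000442) and Rfc1 0.24 (SE 0.07, adjusted p = 0.0079). Dna2 had -0.64 (SE 0.14, adjusted p = 0.000992) and Fen1 -0.47 (SE 0.07, adjusted p = 2.85e-05), while Pcna (log2FC 0.08, SE 0.05, adjusted p = 0.229) and Lig1 (log2FC 0.04, SE 0.08, adjusted p = 0.732) were not called. Between KO2 Myc and KO2 Ctrl, by label, 2 were higher and 4 lower, with 38.8% of all genes called. Rnaseh2a (log2FC 0.82, SE 0.08, adjusted p = 7.37e-07) and Rfc4 (log2FC 0.37, SE 0.09, adjusted p = 0.00179) were higher. Rfc3 (log2FC -0.40, SE 0.08, adjusted p = 0.000379), Fen1 (log2FC -0.35, SE 0.07, adjusted p = 0.000427), Lig1 (log2FC -0.29, SE 0.07, adjusted p = 0.00396) and Pcna (log2FC -0.18, SE 0.05, adjusted p = 0.008) were lower. Pcna held 178 and 172 CPM in KO1 Myc and 178 and 178 in KO2 Myc, against 197 and 189 CPM in WT Myc. Fen1 held 52.3 and 57.4 CPM in the libraries labelled WT Myc, against 52.2 and 50.8 for the label KO1 Myc and 60.4 and 56.0 for KO2 Myc. Lig1 held 156 and 163 CPM in the libraries labelled WT Myc, against 134 and 137 for the label KO1 Myc and 142 and 138 for KO2 Myc, so the libraries labelled WT Myc were its highest of these 6. Dna2, the flap nuclease, held 7.94 and 10.5 CPM in the libraries labelled WT Myc, against 8.66 and 10.1 for the label KO1 Myc and 17.6 and 15.3 for KO2 Myc, with the libraries labelled KO2 Myc apart from the rest. These also lay above Dna2 in KO1 Ctrl (14.7 and 14.5 CPM), whereas those labelled KO1 Myc lay below it, so the direction of Dna2 depends on which label is right. By group means, so does that of Rfc2 and Rfc3, neither called in KO1. Rfc2 averaged 66.3 CPM in KO1 Ctrl, against 55.2 for the label KO1 Myc and 69.2 for KO2 Myc. Rfc3 averaged 37.4, 40.3 and 34.8 CPM in the same order. The Rnaseh2a values were 69.9 and 64.7 CPM in KO1 Myc and 55.8 and 60.3 in KO2 Myc, all above both KO Ctrl groups. Calls fell to 3 in KO1 without KO1 Ctrl replicate 1, and in KO2 to 3 without KO2 Ctrl replicate 2 and to 2 without KO2 Myc replicate 2.

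**Figure D2:**
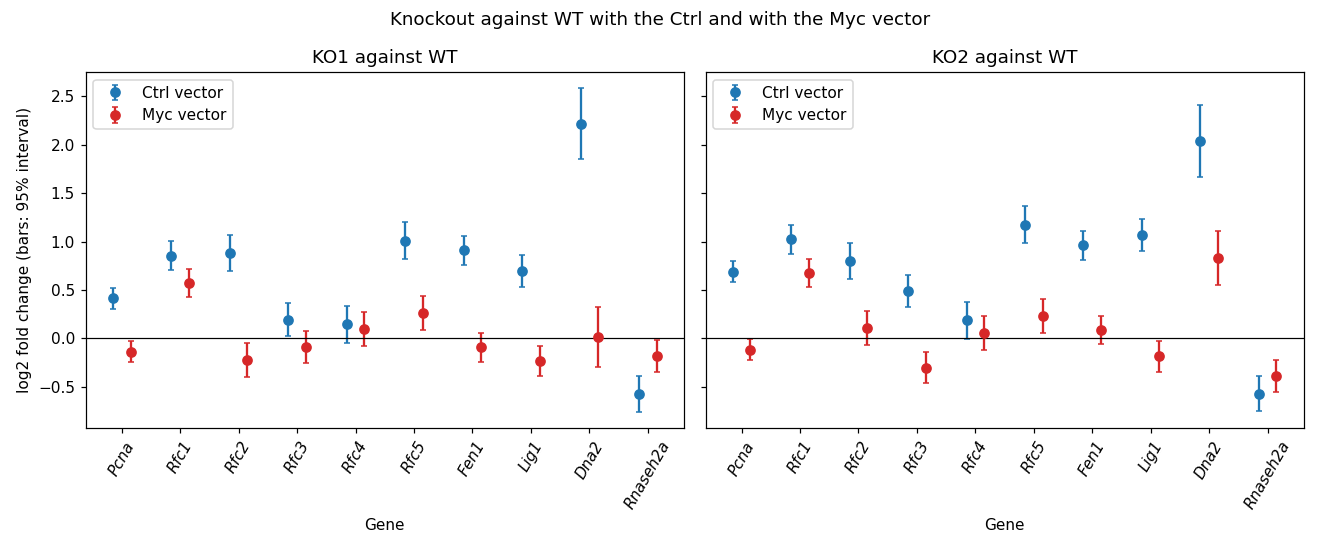
log2 fold change of each Trim33-KO line against Trim33-WT, with the Ctrl vector (blue) and the Myc vector (red, by label). Points are edgeR estimates and bars their 95% intervals. In KO1, 7 blue points lie at 0.41 or above, while the red ones lie between -0.23 and 0.26 except Rfc1 at 0.57.

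Whether the vector changed the gap between KO and WT was tested as the difference of the Myc effects. This difference shares the WT Ctrl libraries with the comparisons above. For KO1 and for KO2 it also uses the same libraries labelled WT Myc. In KO1 minus WT, 6 of the 10 genes had a lower Myc effect (on the signed log2 scale) and 1 (Rnaseh2a) a higher one, with 37.3% of all genes called. The median difference was -0.65, against 0.00045 over all genes. In KO2 minus WT, 8 had a lower effect and none a higher, with 32.8% of all genes called and a median of -0.80, against 0.016 over all genes. Some effects changed sign by label. Fen1 had log2FC 0.53 with Myc in WT but -0.47 in KO1 and -0.35 in KO2. Dna2 had 1.56 in WT and -0.64 in KO1, but 0.35 in KO2, not called. Fen1, for example, differed by -1.003 (SE 0.10, adjusted p = 4.87e-07) and -0.88 (SE 0.10, adjusted p = 2.47e-06), and Lig1 by -0.93 (SE 0.11, adjusted p = 3.2e-06) and -1.25 (SE 0.11, adjusted p = 1.35e-07). Rfc4 differed by -0.05 (SE 0.12, adjusted p = 0.747) and -0.13 (SE 0.12, adjusted p = 0.417), not called, having risen with Myc in each background. Among 12 proliferation genes, 9 and 11 had a lower effect, where 18.1% and 16.2% of all genes did. The Rnaseh2a difference in KO1, 0.40 (SE 0.12, adjusted p = 0.00943), and the Rfc1 difference in KO2, -0.35 (SE 0.10, adjusted p = 0.00731), lost their calls in 11 and 8 of 15 other settings. With the compared groups alone, 6 and 7 of the 10 genes were called, all with lower effects.

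Directly between KO and WT with the Myc vector, 1 and 4 of the 10 genes were called. In KO1 Myc against WT Myc, Rfc1 alone was called (log2FC 0.57, SE 0.07, adjusted p = 8.79e-06), with 25.1% of all genes called. Rfc1 stood at 129.5 and 150.3 CPM in the libraries labelled WT Myc, against 198 and 217 for the label KO1 Myc and 225 and 221 for KO2 Myc, so both KO groups lay above WT Myc by label. In KO2 Myc against WT Myc, 2 were higher (Rfc1, 0.67 (SE 0.07, adjusted p = 7.04e-07), and Dna2, log2FC 0.83, SE 0.13, adjusted p = 8.53e-05) and 2 lower (Rfc3, -0.30 (SE 0.08, adjusted p = 0.0041), and Rnaseh2a, log2FC -0.39, SE 0.08, adjusted p = 0.000607), with 35.2% of all genes called. Pcna differed by -0.14 (SE 0.05, adjusted p = 0.0418) and -0.12 (SE 0.05, adjusted p = 0.069), Lig1 by -0.23 (SE 0.07, adjusted p = 0.0213) and -0.18 (SE 0.07, adjusted p = 0.0495), and Rfc5 by 0.26 (SE 0.08, adjusted p = 0.0193) and 0.23 (SE 0.08, adjusted p = 0.0267), none of them called. Without WT Myc replicate 2 the KO1 count was 3. The KO2 count was 2 without KO2 Myc replicate 1 or with these groups fitted alone. Over all genes, fitting the compared groups alone gave 1541 rather than 3291 calls for KO1 and 2775 rather than 4614 for KO2.

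**Figure D3:**
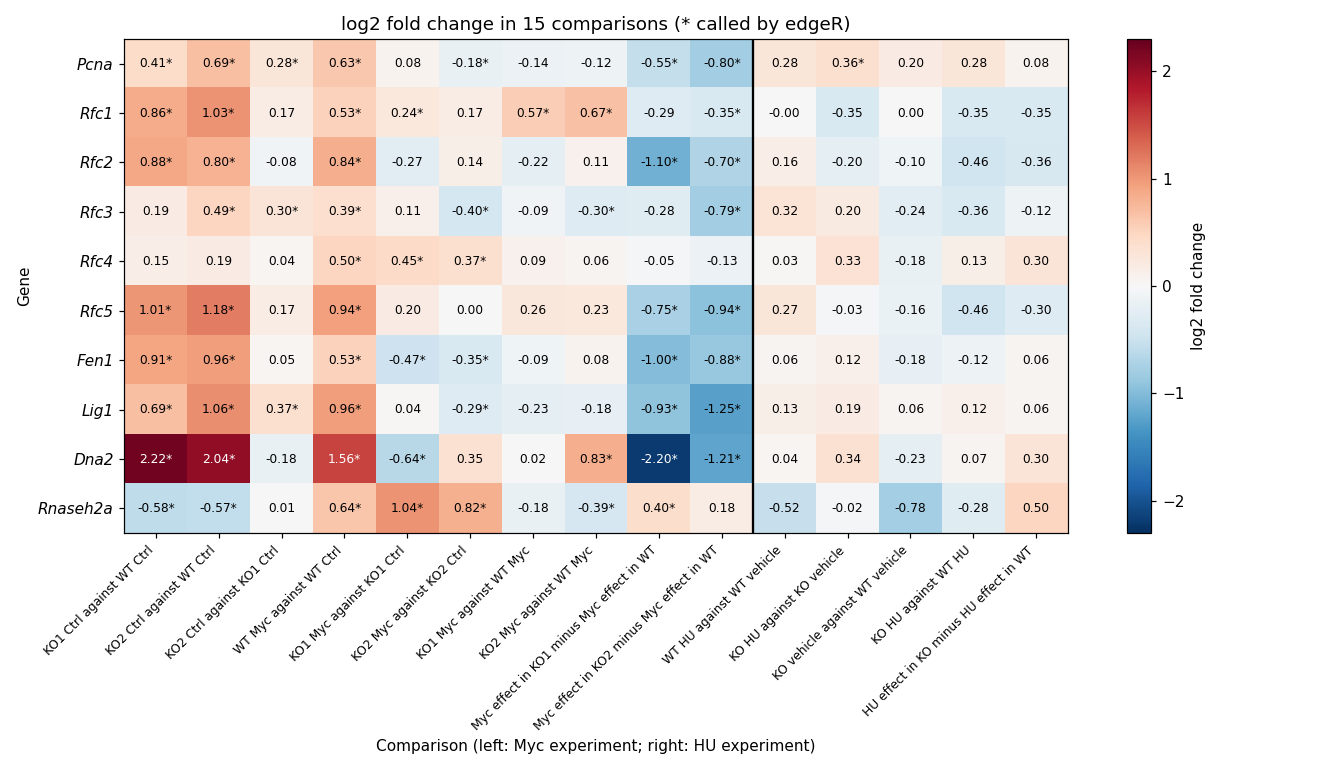
log2 fold change of the 10 genes (rows) in 15 comparisons (columns), from edgeR. Asterisks mark values past the adjusted p threshold (0.01, or 0.05 for HU against vehicle and its difference), and the line separates the Myc from the HU experiment. Of 62 asterisks, 1 lies in the HU experiment (Pcna in KO HU against KO vehicle). Of all genes, 0.0714% to 9.83% were called per comparison of the HU experiment, against 18.3% to 52.2% in the Myc experiment.

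The HU experiment asked how the genes answered stalled forks. In Trim33-WT cells, none of the 10 was called (edgeR, adjusted p below 0.05; 2 at unadjusted p below 0.05, and none by DESeq2), where 9.83% of all genes were called. In Trim33-KO cells 1 was called, Pcna, with 6.45% of all genes called. Pcna held 213 and 258 CPM in WT vehicle, 293 and 277 in WT HU, 259.8 and 279 in KO vehicle and 348 and 345 in KO HU. The KO HU libraries were the highest of all 8. Pcna had log2FC 0.36 (SE 0.11, adjusted p = 0.0339) in KO and 0.28 (SE 0.11, adjusted p = 0.116) in WT, and the difference between the 2 responses was 0.08 (SE 0.16, adjusted p = 0.976), so no difference was detected. DESeq2 gave adjusted p = 0.0756 for Pcna in KO, and the call was also lost without any 1 of the 4 KO libraries (adjusted p up to 0.213). Without WT vehicle replicate 2, Pcna was called in WT too, with adjusted p = 0.0405.

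**Figure D4:**
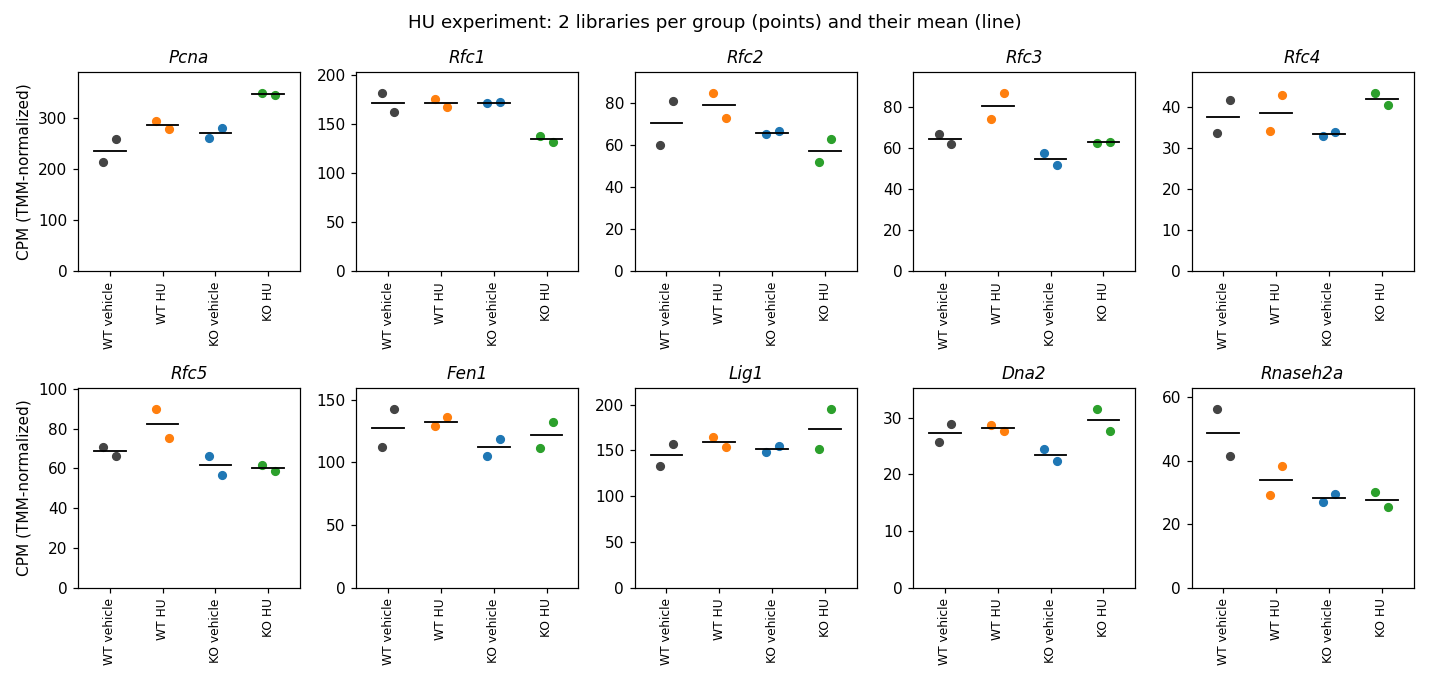
CPM of the 10 genes in the HU experiment. Points are single libraries, 2 per group, and lines are group means. Pcna lies highest in KO HU, Rfc1 lowest in KO HU and Rnaseh2a highest in WT vehicle.

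None of the other 9 genes was called for HU in either background. Rnaseh2a held 56.1 and 41.4 CPM in WT vehicle, 29.3 and 38.4 in WT HU, 26.8 and 29.4 in KO vehicle and 30.0 and 25.3 in KO HU. Its WT vehicle libraries were the highest, and it had log2FC -0.52 (SE 0.22, adjusted p = 0.136) with HU in WT. Rfc1 held 182 and 162 CPM in WT vehicle, 176 and 167 in WT HU, 172 and 172 in KO vehicle and 138 and 132 in KO HU, and its log2FC in KO was -0.35 (SE 0.12, adjusted p = 0.0817), not called. Rfc3 held 66.8 and 62.0 CPM in WT vehicle, 74.1 and 86.9 in WT HU, 57.7 and 51.8 in KO vehicle and 62.6 and 63.2 in KO HU, highest in WT HU.

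The nucleases and the ligase were not called either. Fen1 held 112 and 142 CPM in WT vehicle, 129 and 136 in WT HU, 105 and 119 in KO vehicle and 112 and 132 in KO HU. Lig1 held 133 and 157 CPM in WT vehicle, 164 and 153 in WT HU, 148 and 154 in KO vehicle and 152 and 195 in KO HU. Dna2 held 25.7 and 28.9 CPM in WT vehicle, 28.6 and 27.7 in WT HU, 24.4 and 22.4 in KO vehicle and 31.5 and 27.7 in KO HU. For Fen1 and Lig1 the vehicle and HU libraries overlapped in both backgrounds, and for Dna2 they overlapped in WT and not in KO. The remaining loader genes spanned 52.0 to 84.6 CPM (Rfc2), 32.9 to 43.5 CPM (Rfc4) and 56.8 to 89.7 CPM (Rfc5) over the 8 libraries. The median log2FC of the 10 genes with HU was 0.092 in WT and 0.155 in KO, against 0 and -0.0099 over all genes. Of the 22 further genes, Pif1, a helicase, was the one called, at -1.95 in WT and -2.00 in KO. Of 12 proliferation genes, 6 fell with HU in WT and 5 in KO, where 3.44% and 1.8% of all genes were called lower. Both cholangiocyte markers rose with HU in each background. Their sum went from 155 to 201 CPM in WT vehicle to 283 to 288 CPM in WT HU, and from 261 to 269 CPM in KO vehicle to 435 to 442 CPM in KO HU. Their part in the values above was not tested.

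Between KO and WT, genes were called at adjusted p below 0.01 (edgeR), not 0.05 as for HU. None of the 10 was called in vehicle (1 at unadjusted p below 0.05, none by DESeq2), where 5.58% of all genes were called. None was called under HU either (5 unadjusted, none by DESeq2), where 6.04% of all genes were called. Rnaseh2a came nearest in vehicle, -0.78 (SE 0.23, adjusted p = 0.0154), with the WT vehicle libraries at 56.1 and 41.4 CPM and the KO at 26.8 and 29.4. It was called without WT vehicle replicate 2, with library totals alone and with a replicate block (adjusted p from 0.00873 to 0.00999). Pcna under HU was called with these groups fitted alone (adjusted p = 0.00801). Of 12 proliferation genes, none was called in vehicle (median log2FC -0.017) or under HU (0.081). The same held for the 18 other replication genes (0.031 and 0.073). Of the 22 further genes, 2 were higher in vehicle and 1 under HU. The median log2FC of the 10 genes was -0.168 in vehicle and -0.202 under HU, against -0.00013 and -0.0069 over all genes, beside 0.77 (KO1) and 0.88 (KO2) with the Ctrl vector in the Myc experiment. In that experiment Rnaseh2a fell in both KO lines, by 0.58 and 0.57 on the log2 scale. Dna2, which rose by 2.22 and 2.04 there, had a log2FC of -0.23 in vehicle (adjusted p = 0.642, edgeR). Fen1 had -0.18 and Rfc5 -0.16 in vehicle, neither called. Lig1, which rose in both KO lines with the Ctrl vector, held 133 and 157 CPM in WT vehicle and 148 and 154 in KO vehicle, which overlapped. Under HU, the 5 genes at unadjusted p below 0.05 were Pcna (log2FC 0.28, SE 0.11, adjusted p = 0.0897), Rfc1 (log2FC -0.35, SE 0.12, adjusted p = 0.0574), Rfc2 (log2FC -0.46, SE 0.17, adjusted p = 0.0714), Rfc5 (log2FC -0.46, SE 0.17, adjusted p = 0.0646) and Rfc3 (log2FC -0.36, SE 0.17, adjusted p = 0.176), none called. Of these, Pcna lay higher in KO HU and the 4 loader genes lower, and in no case did the KO HU and WT HU libraries overlap. The difference in the HU response was called for none of the 10 (none at unadjusted p below 0.05 or by DESeq2), with 0.0714% of all genes called. Chtf18, a subunit of an alternative clamp loader, was higher in KO in both states, by 0.83 and 0.92.

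Genes whose profile over the 10 groups was nearest to a gene of the set were sought among 10073 genes, by root-mean-square distance of log2 CPM. Nearest to Pcna was Rad51ap1 (0.0699), to Lig1 Gins2 (0.0511), to Rfc1 Syne3 (0.0631) and to Rnaseh2a Cep44 (0.0755). Of the 30 places listed, 3 for each gene, none was held by a gene of the set. With 9 other set genes among the 10073, that count says little about whether the set moved together. Rad51ap1 and Fam57a were listed for both Pcna and Lig1, which lay at a distance of 0.118 from each other.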

How the data were processed

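Total RNA of p19/Nras cells was sequenced from 20 libraries in 10 groups. According to the submitters' processing notes, reads were mapped to mm9 with STAR 2.5.4. The counting tool and annotation are not given in the sources used here. The authors deposited counts per gene for each experiment, and 8 result tables of their own tests (log2 fold change, average log2 CPM, F, p-value and adjusted p-value), which were not used. The counts of the Myc experiment are named as normalized. Their library totals still differed (14753177 to 17949430), and they were used as counts. The lowest total of a gene was 26 in the Myc and 29 in the HU experiment, so genes with fewer counts are absent from all shares given here. In the HU table, 71.9% of the counts from 1 to 50 were even, against 48.4% in the Myc table.

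Each experiment was fitted alone with edgeR 4.0.16 (R 4.3.3, limma 3.58.1), with filterByExpr (0 genes removed), TMM factors, a coefficient for each group and quasi-likelihood testing. P-values were adjusted by Benjamini and Hochberg over all genes, with thresholds of 0.01 for KO, Myc and their differences and 0.05 for HU and its difference. CPM are TMM-normalized and log2FC are fitted values. With 2 libraries per group, an exact permutation test cannot reach 0.05. The scripts were tested on simulated data. Positions, transcript lengths and coding lengths came from GENCODE M1 on mm9, although protein lengths had been planned for the latter. Promoters came from RefSeq. Genes without a symbol (298 and 168) stayed in the fits.

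The 10 genes and the other lists (22 clamp and fragment genes, 18 replication genes, 12 proliferation genes and cell type markers) were chosen with earlier results of these data known. All 10 genes are named. Of the 22, up to 3 of the largest called rises and falls were named per comparison, and the RNase H2 subunits were named after their values were seen. Alternatives were DESeq2 1.42.0, RLE factors, library totals, no filter, at least 5 CPM in every library, the compared groups alone, a replicate block, each library left out and, for HU, counts halved.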

Additional observations from a re-analysis of the deposited data

Results flagged for a closer look

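Effects that differed between groups, by edgeR's test of the difference itself, were found for 18 values, given as the log2 difference with the adjusted p in parentheses. For the Myc effect in KO1 minus that in WT they were Pcna -0.55 (1.13e-05), Rfc2 -1.10 (1.58e-06), Rfc5 -0.75 (0.000105), Fen1 -1.003 (4.87e-07), Lig1 -0.93 (3.2e-06), Dna2 -2.20 (9.44e-07) and Rnaseh2a 0.40 (0.00943). For the Myc effect in KO2 minus that in WT they were Pcna -0.80 (2.23e-07), Rfc1 -0.35 (0.00731), Rfc2 -0.70 (0.000184), Rfc3 -0.79 (2.29e-05), Rfc5 -0.94 (1.14e-05), Fen1 -0.88 (2.47e-06), Lig1 -1.25 (1.35e-07) and Dna2 -1.21 (0.000407). Both sets share the WT Ctrl libraries, in which 9 of the 10 genes were lowest. They also share the libraries labelled WT Myc, which differed more from each other than those of any other group of that experiment. Both also rest on the labels of the Myc libraries, which the order of Trim33 RNA did not follow. For the knockout effect in KO2 minus that in KO1, with the Ctrl vector, they were Pcna 0.28 (0.000601), Rfc3 0.30 (0.00791) and Lig1 0.37 (0.00125). No difference between the HU responses of KO and WT was called.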

How the results depend on the processing

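Of 62 called log2FC of the 10 genes, 48 kept their call in every alternative and 14 lost it in at least 1, and none changed sign. The filter of at least 5 CPM removed Dna2 from the Myc experiment, so Dna2 has no value there. All 27 calls of KO1 Ctrl, KO2 Ctrl and WT Myc against WT Ctrl kept theirs. Counts of called genes that moved by over 1.5 times were as follows. With DESeq2, KO HU against KO vehicle went from 1 to 0. With library totals only, KO against WT in vehicle went from 0 to 1. With the compared groups alone, KO2 Myc against WT Myc went from 4 to 2 and KO HU against WT HU from 0 to 1. With 1 library left out, counts ran from 0 to 1 for KO2 Ctrl against KO1 Ctrl (3 in full), from 3 to 4 for KO1 Myc against KO1 Ctrl (5), from 2 to 4 for KO2 Myc against KO2 Ctrl (6), from 1 to 3 for KO1 Myc against WT Myc (1), from 2 to 5 for KO2 Myc against WT Myc (4), from 0 to 1 for WT HU against WT vehicle (0), at 0 for KO HU against KO vehicle (1) and from 0 to 1 for KO against WT in vehicle (0). Uncalled differences changed sign without 1 library: the Rfc4 difference in Myc effect ran from -0.19 to 0.092 (KO1) and from -0.26 to 0.016 (KO2), the positive values without WT Myc replicate 1. The Pcna difference in HU response ran from -0.047, without WT vehicle replicate 2, to 0.22. The cause was not tested. With 1 library left out, the lone library of its group was assumed to vary like the other groups.

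No pairing by replicate number was detected over all genes, which cannot exclude one: deviations of same-numbered libraries correlated at -0.148 to 0.192 over 15 pairs of groups in the Myc experiment and -0.0136 to 0.051 over 6 in the HU experiment. A replicate block raised the number of all genes called in every comparison, for example from 626 to 791 for KO against WT in vehicle. With the replicate block, the count went from 0 to 1 for KO against WT in vehicle (Rnaseh2a) and from 5 to 6 for KO1 Myc against KO1 Ctrl (Rfc2), and it was the same in the other 13 comparisons. The common biological coefficient of variation was 0.102 in the HU experiment and 0.0498 in the Myc experiment. The HU libraries were also shallower, and the part of depth in their lower counts of called genes was not tested.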
